A study of Zea mays with 2182 samples.

Results

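The 24PHAS loci of the maize genome were followed 1 by 1 through anther growth in single cells. A 24PHAS locus gives a long non-coding transcript that carries a target site for the microRNA miR2275; the cleaved transcript is made double-stranded and cut at regular steps into phased small RNAs of 24 nucleotides. These small RNAs are a hallmark of grass anthers, where they accumulate as the germinal cells enter meiosis, and their production in maize depends on the tapetum, the innermost wall layer, and on the Dicer enzyme DCL5. The members were all rows of the count table whose name starts with 24PHAS, 75 of 22173 rows, of which 4 carry several joined locus numbers (24PHAS_NO187_NO188, for example, written NO187_NO188 below, with the prefix left out throughout). CEL-Seq2 reads the polyadenylated 3' ends of transcripts, so the values are of precursor transcripts and not of the small RNAs, and each captured molecule counts once through its unique molecular identifier (UMI). All values are UMIs per row or UMIs per 1000000 UMIs (CPM), not divided by transcript length.

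All cells came from fertile W23 inbred plants, with no mutant and no treatment, and the groups were 11 anther lengths from 0.5 to 3.0 mm in steps of 0.25 mm. Anthers were fixed and digested with the FX-Cell method, and single cells were sorted into wells with a Hana sorter. At least 2 plants were used for each stage, per the design text. The labels do not say which plant a cell came from, so each length counts as 1 sample, its cells summed, and p-values measure only how the 11 sums scatter around the fit. Each title also holds a set (a date or a word), a number that no source explains, and a well. Cells that share set, number and length are called a pool.

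Cells with at least 500 UMIs were kept, 1658 of 2182. Pool 7 of set 8.18.21 (0.5 mm, 14 cells) and set MiSeq (2.0 mm, 28 cells) were kept apart from the start, because both held 24PHAS UMIs far above other cells of their lengths; 1616 cells remained, with a median of 1343.5 UMIs (500 to 50159). All 96 wells were used in more than 1 pool. A clustering made without PHAS and microRNA rows gave 19 clusters, of which clusters 7 and 9 (11.0% of the kept cells) had their cells in the same wells of different pools 2.85 and 4.63 times as often as cluster sizes within pools give. Cells of these 2 clusters are called cells of recurring wells below, and results are given with and without them. The name marks the cluster and not the well, so cells of other clusters in the same wells stay outside it. Among kept cells with at least 10 24PHAS UMIs, 5 of 7 in well 46 were of these clusters. In wells 18 and 55, with 3 such cells each in 3 pools, 0 were. Cluster 9 held 0 24PHAS UMIs, and cluster 7 held 35.3% of those in kept cells.

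The 24PHAS transcripts were concentrated in anthers of 1.25 to 1.75 mm. Summed over all 75 loci, the level was 17.1 CPM in cells of 0.5 mm (6 UMIs), 48.5 CPM in those of 0.75 mm (10 UMIs) and 28.6 CPM in those of 1.0 mm (7 UMIs). Then it stood at 1908 CPM in the cells of 1.25 mm (95% Poisson interval 1728 to 2103), 7599 CPM in those of 1.5 mm (7192 to 8023) and 7463 CPM in those of 1.75 mm (7111 to 7828). At 2.0 mm it was 16.9 CPM (24 UMIs in the deepest group, 1419519 UMIs) and at 2.75 mm 10.0 CPM (2 UMIs). No UMI was counted at 2.25, 2.5 and 3.0 mm, which allows up to 12.2, 8.09 and 22.6 CPM (3 counts of the total). Intervals and limits cover counting error only, and in such sums fewer cells of a type and less RNA per cell cannot be told apart. The 3 middle lengths held 3396 of the 3445 UMIs, 98.6%, and 41, 69 and 73 of the 75 loci were seen there. The pools kept apart were chosen for their 24PHAS UMIs, so this share depends on leaving them out: with them it was 67.8% of 5012 UMIs, and the level was 1109 CPM (1010 to 1215) in all cells of 0.5 mm and 759 CPM (716 to 805) in all cells of 2.0 mm. Outside the pools kept apart, the cells under 500 UMIs, which entered no sum, gave 1157, 6709 and 6187 CPM at the same 3 lengths and 0 UMIs at the 8 other lengths. In those pools 40 such cells held 53 24PHAS UMIs.

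**Figure D1:**
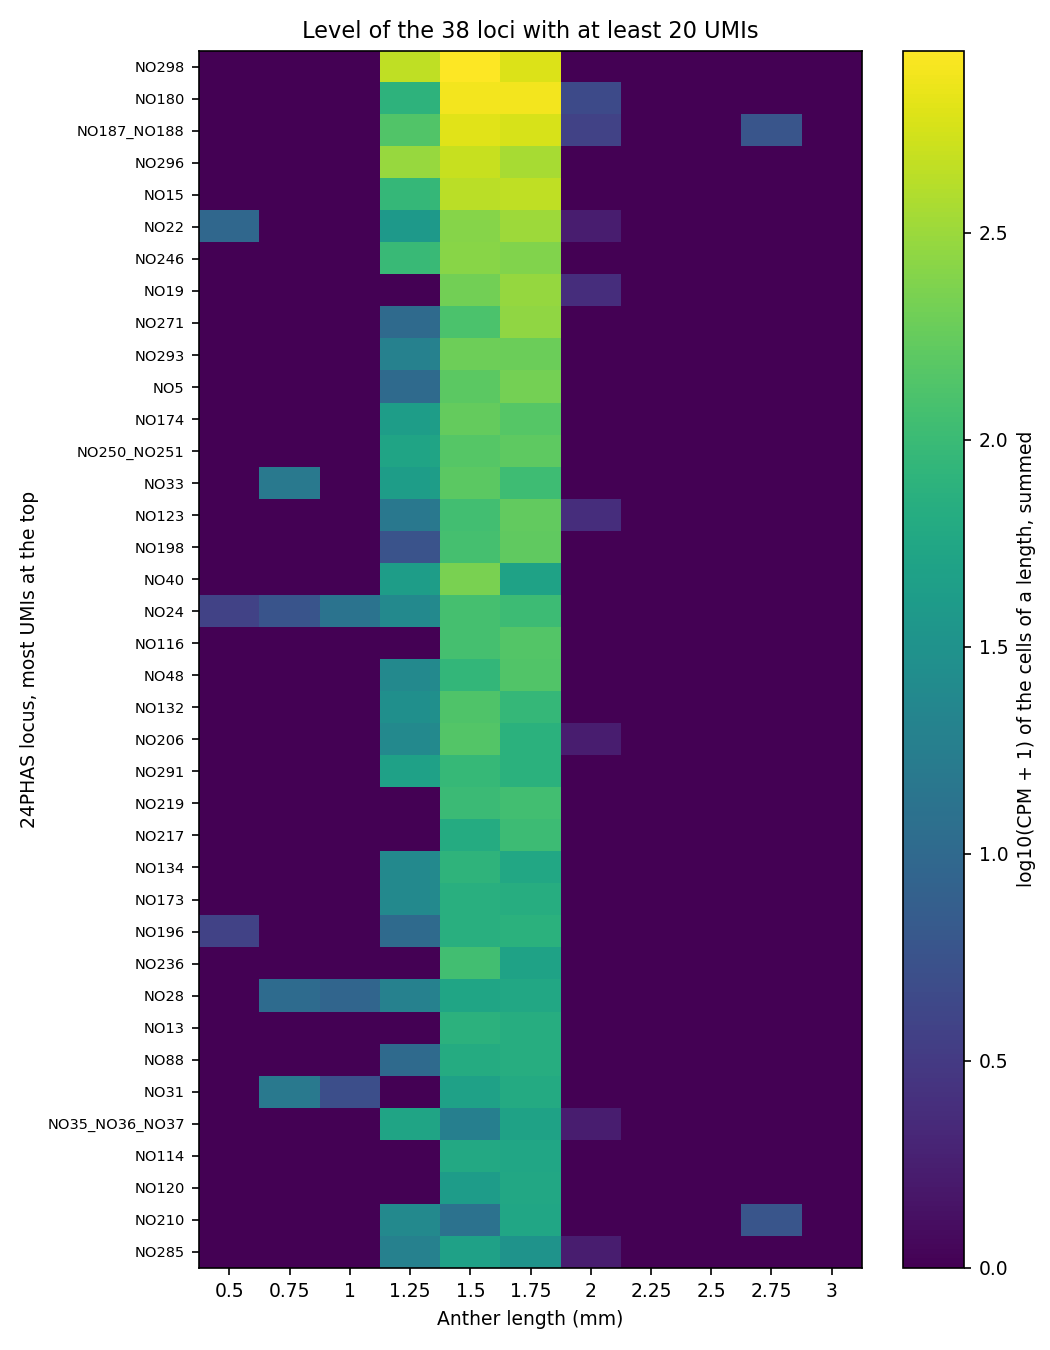
Level of each of the 38 loci with at least 20 UMIs (rows, most UMIs at the top) in the summed cells of each anther length (columns, mm), as log10(CPM + 1) by colour, without the pools kept apart. Peak levels run from 46.6 CPM of NO285 to 868 CPM of NO298, both at 1.5 mm. In the column of 1.25 mm 9 loci are at 0, and few cells of the map outside the 3 columns of 1.25 to 1.75 mm are above 0.

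The leading loci had this course 1 by 1. NO298 was at 458, 868 and 607 CPM at 1.25, 1.5 and 1.75 mm and at 0 UMIs at the other 8 lengths. NO296 was at 308.7, 495 and 358.97 CPM at these 3 lengths and likewise at 0 UMIs elsewhere. Both were thus present in the first of the 3 lengths at over 0.5 of their highest level. NO180 was at 79.5, 775 and 767 CPM, with 5 UMIs at 2.0 mm (3.52 CPM) and 0 UMIs at 7 lengths. NO187_NO188 was at 135.6, 641 and 576 CPM, with 4 UMIs at 2.0 mm and 1 UMI at 2.75 mm. These 2 stood several times higher at 1.5 and 1.75 mm than at 1.25 mm. NO15 was at 88.9, 431 and 456 CPM, and NO246 at 98.2, 262.2 and 239.3 CPM, with 0 UMIs elsewhere. NO22 was at 37.4, 256.4 and 323.5 CPM, with 3 UMIs at 0.5 mm and 1 UMI at 2.0 mm. For each of the 15 loci with the most UMIs, the Poisson intervals at 1.5 and 1.75 mm lay above those of every length outside the 3.

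The course over length was tested for every row of the table that passed the filter on low counts, with edgeR's quasi-likelihood F-test of the squared term of length and Benjamini-Hochberg adjustment over all 7367 rows tested. Of the 75 loci, 35 passed the filter, and 31 of these rose in the middle lengths and fell again (adjusted p under 0.05); 0 had the opposite course. Over all tested rows 2.38% passed in either direction and 2.21% as high in the middle. The filter lets a locus pass through the lengths where it is high, so the count of 31 speaks for the tested loci alone. The smallest adjusted p-values were those of NO180 (9.59e-06), NO19 (9.89e-05), NO246 and NO298 (0.000221 each) and NO15 (0.000264). The call was also made for NO296, NO123, NO293, NO5, NO40, NO206, NO174, NO250_NO251, NO271, NO187_NO188, NO132, NO198, NO116, NO48, NO291, NO219, NO134, NO173, NO217, NO88, NO33, NO236, NO24, NO13, NO22 and NO35_NO36_NO37, the last with the largest adjusted p of the 31 (0.0336). NO114 (0.0502), NO28 (0.0587), NO196 (0.102) and NO31 (0.207) did not pass. The median squared coefficient of the 35 was -22.0 against -0.07 over all rows, but with 0 UMIs at most lengths these coefficients depend on the prior count and give no size.

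The call rests on the tool and on the pools kept apart. DESeq2's Wald test on the same sums called 0 of the 35 loci (6 at an unadjusted p under 0.05), and 1.26% of all rows, 1.11% as high in the middle, with adjusted p of 0.228 to 0.763 for the 31 named loci. With pool 7 of set 8.18.21 and set MiSeq included, edgeR called 2, NO293 and NO296, beside 0.846% of all rows, 0.777% as high in the middle. Without the cells of recurring wells 19 of 24 tested loci passed, beside 1.97% of all rows, 1.92% as high in the middle. The fit on sums per pool with set and number as a block gave 23 of 24, beside 2.02% and 1.85%. Without a filter on low counts 69 of the 75 passed, beside 2.36% and 2.12%. Leaving out 1.5 mm or 1.75 mm left 7 loci past the test in each case, with 9 and 8 tested. For a straight rise or fall over all lengths, the filter of that model left 0 of the 75 loci, beside 31.3% of 5541 tested rows called. Without a filter all 75 were tested and edgeR called 0, with 0 at an unadjusted p under 0.05, beside 12.4% of all rows.

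Peak lengths were read for the 38 loci with at least 20 UMIs. None was highest outside 1.25 to 1.75 mm, where 26.6% of the 15951 rows with as many UMIs had their highest level. NO35_NO36_NO37 was highest at 1.25 mm (11 of its 26 UMIs, with 3 at 1.5 mm and 11 at 1.75 mm), 19 loci at 1.5 mm and 18 at 1.75 mm, against 11.4%, 8.14% and 7.05% of all rows. The 2 later lengths could not be ordered for most loci: the Poisson intervals at 1.5 and 1.75 mm overlapped in 35 of 38. Overlap was not counted for other rows, so it is not read as particular to these loci. The intervals hold counting error alone, and pools of 1 length differed by more. They were apart for NO298, 868 CPM at 1.5 mm (734 to 1019) against 607 CPM at 1.75 mm (510 to 718), but its pools of 1.5 mm with at least 100 24PHAS UMIs ran from 470 to 1792 CPM, and in number 2 of set 8.18.21 the order turned, 470 CPM and then 714 CPM. NO40 stood at 221.5 CPM (38 UMIs) at 1.5 mm against 48.7 CPM (11 UMIs) at 1.75 mm. NO271 went the other way, from 128.2 CPM (22 UMIs) to 279.2 CPM (63 UMIs). A single cell of 1.75 mm, the one with the most 24PHAS UMIs, weighed on this order: without it, 34 loci had 20 UMIs, and 1, 23 and 10 of them were highest at 1.25, 1.5 and 1.75 mm. Within set 8.18.21 alone the split was 15 at 1.5 mm and 19 at 1.75 mm, and without the cells of recurring wells 11 and 18. In every one of these settings 0 loci were highest at another length.

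A few loci took most of the transcripts. NO298 held 11.1% of the 3445 UMIs (95% binomial interval, Clopper-Pearson, 10.1 to 12.2). NO180 followed with 9.52%, NO187_NO188 with 7.95%, NO296 with 6.73% and NO15 with 5.69%. Then came NO22 with 3.74%, NO246 with 3.48% and NO19 with 3.02%, and these 8 loci together held 51.3%. NO271, NO293, NO5, NO174, NO250_NO251, NO33 and NO123 had 87 to 62 UMIs, and 25 loci together held 80.3%. At the other end 37 loci had under 20 UMIs and 22 under 10. NO185 was seen as 1 UMI in 1 cell, and NO111 as 2. Each of the 75 loci had at least 1 UMI. Since 3' ends are counted, these shares rank captured transcript ends.

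The loci differed in the share of their UMIs that fell at 1.25 mm. NO298 and NO296, singled out after their values were seen, had 98 and 66 UMIs at this length, 40.2% of its 24PHAS UMIs between them (35.4 to 45.1). At 1.5 mm they held 17.9% (15.9 to 20.1) and at 1.75 mm 12.9% (11.4 to 14.6). NO298 stood at 458 CPM at 1.25 mm and NO296 at 308.7 CPM, while NO180, close to NO298 in total, stood at 79.5 CPM and then at 775 and 767 CPM. NO19, NO116, NO219, NO217, NO236, NO13, NO31, NO114 and NO120, 9 of the 38 loci, had 0 UMIs at 1.25 mm; NO19 went on to 35 UMIs at 1.5 mm and 67 UMIs (296.9 CPM) at 1.75 mm. Over the 38 loci the median share of a locus's own UMIs that fell at 1.25 mm was 9.56%, against 28.4% for NO296 (22.7 to 34.7), 25.5% for NO298 (21.2 to 30.2) and 42.3% for NO35_NO36_NO37 (23.4 to 63.1). These 3 were the loci whose interval lay above the 11.8% of all 24PHAS UMIs. The intervals of 9 loci lay below it: NO180, NO5, NO271, NO198, NO19, NO116, NO219, NO217 and NO236. For NO13, NO31, NO114 and NO120, with 0 UMIs at 1.25 mm, the interval reached past 11.8% (upper bounds of 12.3% to 16.8%). Their 0 does not set them apart, and NO31 had 4 UMIs at 0.5 to 1.0 mm.

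**Figure D2:**
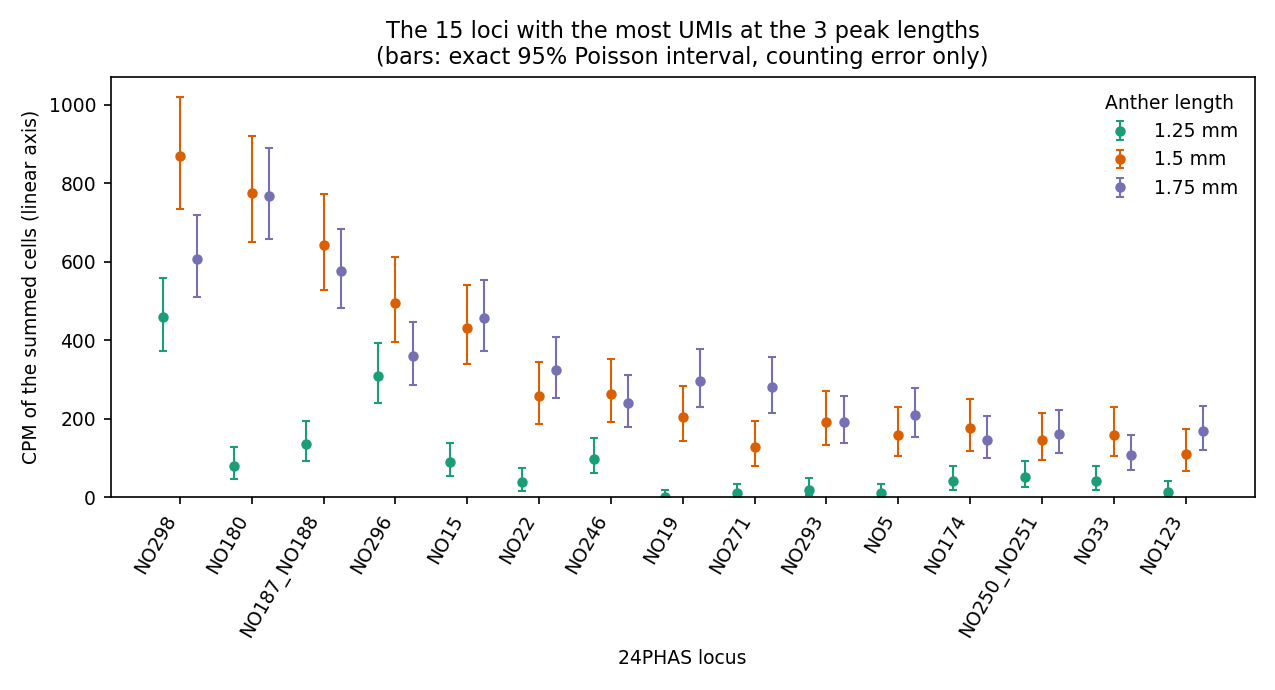
Level in CPM (linear axis) of the 15 loci with the most UMIs at 1.25, 1.5 and 1.75 mm, 1 point per length for the summed cells, with exact 95% Poisson intervals that cover counting error only. NO298 (458 CPM) and NO296 (308.7 CPM) are the 2 highest at 1.25 mm, while NO19 is at 0 there.

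The change in shares was also seen within 1 set and number, where the cells changed as well. In number 2 of set 8.18.21, which has cells at all 3 lengths, NO298 was at 644 CPM at 1.25 mm (497 to 820), 470 CPM at 1.5 mm (301.4 to 699.9) and 714 CPM at 1.75 mm (551 to 910), with intervals that all overlap. Over the same 3 pools the sum of all loci went from 2188 to 4253 and 8116 CPM. NO180 went from 69.3 to 176.4 and 593 CPM, NO271 from 0 UMIs at 1.25 and 1.5 mm to 406.3 CPM, and NO19 from 0 UMIs to 1 UMI and then 296.5 CPM. NO298 and NO296 thus held 46.2%, 18.0% and 14.3% of the 24PHAS UMIs of these pools. In number 5 of the set they held 35.3% at 1.25 mm. The 3 pools of number 2 differ in their cells as well. At 1.25 and 1.5 mm nearly all their 24PHAS UMIs were in cells of recurring wells, and 0 were in cluster 11, described below. At 1.75 mm most were in cluster 11. The levels of NO180, NO271 and NO19 at 1.75 mm thus come with a change of cells, and its part was not tested. Set 3.29.22 gave 37 24PHAS UMIs at 1.25 mm, of which NO296 had 9 and NO298 0 (upper bound of its share, 9.49%). All but 35 of the 24PHAS UMIs at 1.25 mm were in cells of recurring wells, where the pair held 42.4% (37.3 to 47.6). In the other 98 cells it held 6 of the 35, 17.1% (6.56 to 33.6). At 1.5 mm, cells of recurring wells and other cells gave 18.4% and 17.7%, and at 1.75 mm 12.3% and 13.2%. The part of the recurring wells in the shares at 1.25 mm was not tested.

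Pools of 1 length differed both in level and in the loci that made it up. At 1.5 mm the summed level was 17653 CPM in number 1 of set 8.18.21, 4253 CPM in its number 2, 6958 CPM in set 3.29.22, 5932 CPM in number 2 of set 1.4.21 and 0 UMIs in 10 cells of its number 6. At 1.75 mm it was 14709 and 8116 CPM in numbers 1 and 2 of set 8.18.21, but 1 UMI in 28 cells of number 2 of set 1.4.21 (18.9 CPM) and 0 in 4 cells of its number 6. The level at 1.75 mm is thus that of set 8.18.21 alone. Across the 8 pools with at least 100 24PHAS UMIs, NO187_NO188 was the steadiest of the 5 leading loci, at 5.82% to 10.0% of the UMIs. NO246 ranged from 0.493% in number 2 of set 1.4.21 to 9.35% in set 3.29.22, both at 1.5 mm, and NO40 from 0.106% to 8.29%. At 1.5 mm NO40 had 18 UMIs, 8.29%, in number 2 of set 8.18.21 (4.99 to 12.8) but 9 UMIs, 1.34%, in number 1 (0.616 to 2.53), intervals that do not overlap. NO180 held 4.15% in number 2 and 10.9% in number 1. These 2 pools also differ in their cells: in number 2, 210 UMIs were in cells of recurring wells and 0 in cluster 11, described next, and in number 1, 492 of 670 were in cluster 11. What part this has in the shares was not tested.

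**Figure D3:**
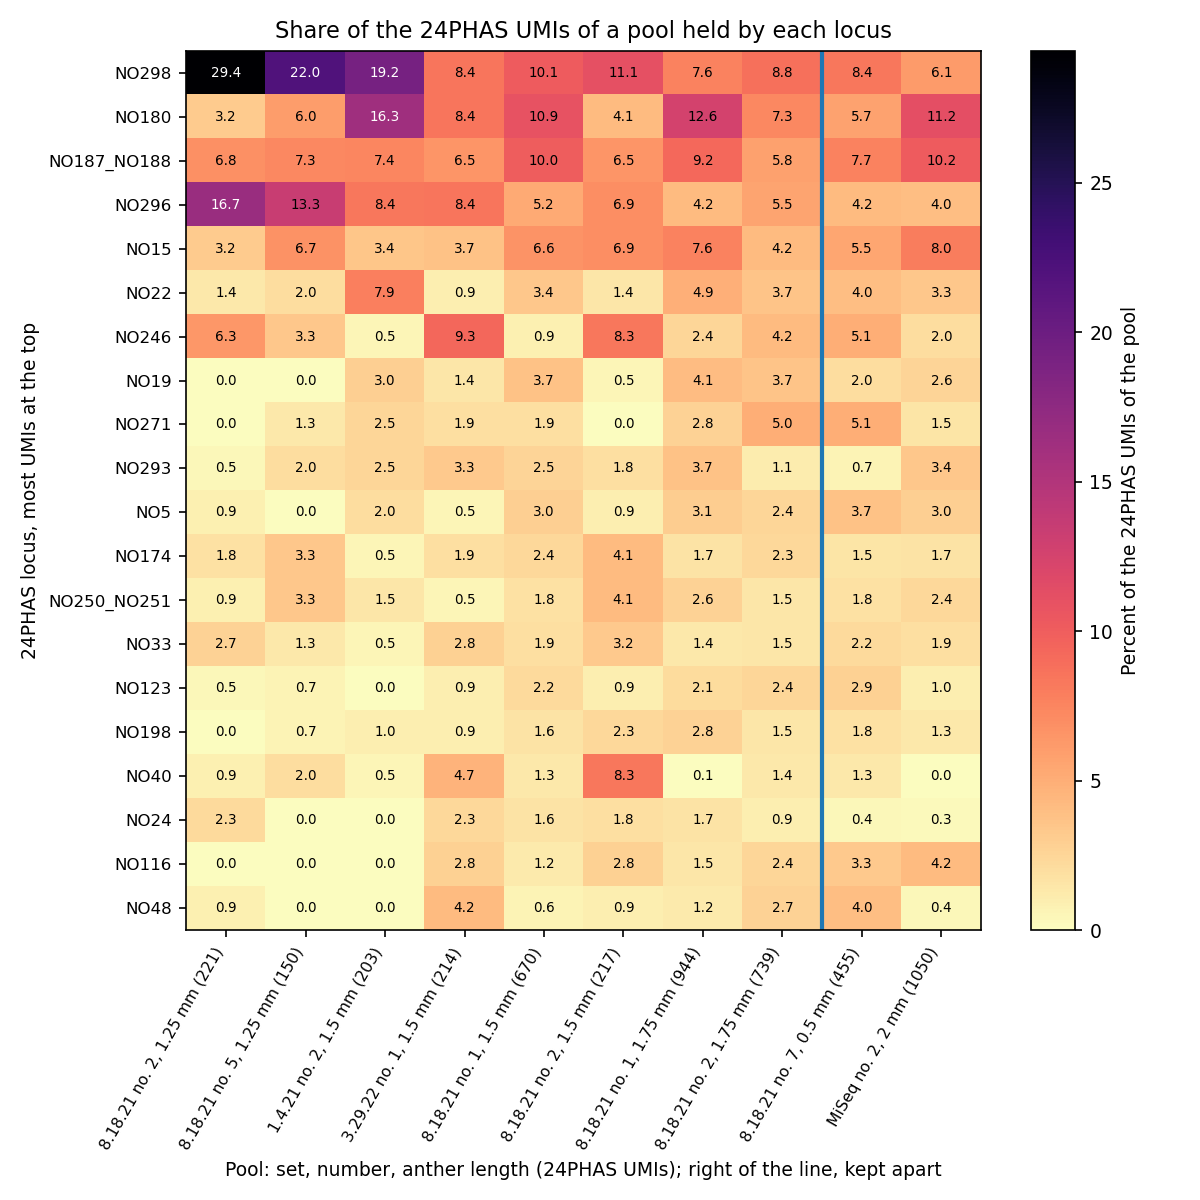
Percent of the 24PHAS UMIs of a pool (column; the number of UMIs is in brackets) held by each of the 20 loci with the most UMIs (rows), with the 2 pools kept apart to the right of the line. NO298 is highest in the 2 pools of 1.25 mm (29.4% and 22.0%), and NO246 and NO40 differ between pools of 1.5 mm.

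The cells with most 24PHAS transcripts formed a small group. Cluster 11, made without PHAS rows, held 35 cells at 1.5 and 1.75 mm and 4 of set MiSeq, and none at 1.25 mm. Its level was 29994 CPM in 17 cells at 1.5 mm and 44007 CPM in 18 cells at 1.75 mm, against 11184 and 9072 CPM in cells of recurring wells. In the 34 cells of cluster 11 with at least 10 24PHAS UMIs the photosynthesis genes RBCS, CAB1, PSAH and PSBQ1 were at 0 UMIs, while the 41 cells of recurring wells with as many 24PHAS UMIs held them at 1082 CPM. None of the 9 tapetum markers listed has a row in the table, so no cell type is given to the cluster. Loci were shared unequally between the 2 groups of cells at 1.5 mm: NO180 held 13.0% of the UMIs in cluster 11 (10.7 to 15.7) and 6.46% in recurring wells (4.46 to 9.00), NO246 1.48% and 6.87%, and NO40 1.34% and 5.45%. These were the 3 of the 20 loci compared, those with at least 50 UMIs, whose intervals did not overlap. At 1.75 mm the intervals of all 3 overlapped, with NO180 at 10.9% and 8.53%, and those of 1 other locus, NO198, did not, at 2.82% in cluster 11 (1.93 to 3.95) and 0.656% in recurring wells (0.136 to 1.91).

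Loci were detected together. Of the 420 cells of 1.25 to 1.75 mm, 45.5% held a 24PHAS UMI (39.0%, 45.9% and 51.8% by length), and 70.2% of these (63.1 to 76.5) held at least 2 loci. A cell with any locus held a median of 4, and by length 2, 9 and 5. Thinned to 500 UMIs per cell, which leaves out no cell, 34.5% of cells held a locus and 65.5% of these at least 2, with a median of 3. Free RNA that enters a well with a cell can also give UMIs. In cells with at least 5 UMIs of the 4 photosynthesis genes, outside recurring wells, 13 of 52 held a 24PHAS UMI (25.0%; 9.62% thinned; median of 1330 UMIs per cell), against 93 of the other cells (33.7%; 26.4% thinned; median of 884 UMIs). The binomial intervals of the unthinned shares overlap (14.0 to 38.9 and 28.1 to 39.6). Those of the thinned shares nearly touch (3.20 to 21.0 and 21.3 to 32.1) and come from a single random draw. Cells of a pool are not independent trials, so no difference is read from these intervals. At least 10 24PHAS UMIs were held by 0 of the 52 and by 38 of the others. With recurring wells included, 11 of 66 such photosynthesis cells held at least 10. The cut-off of 10 thus leaves out photosynthesis cells only outside recurring wells. Since the photosynthesis cells were not free of 24PHAS UMIs, a single UMI is not read as expression. The values of the next paragraph are for cells with at least 10 24PHAS UMIs.

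There were 79 such cells, 12, 36 and 31 by length, and they held 3100 of the 3445 UMIs. They carried a median of 16 loci, from 2 to 55. The number of loci depends on a cell's 24PHAS UMIs. Its ratio to the number those UMIs would give at the pooled shares had a median of 0.89 (0.16 to 1.24). By length the median ratio was 0.74, 0.89 and 0.91. The leading locus took a median of 16.7% of a cell's 24PHAS UMIs. The cell with the most, at 1.75 mm, had 55 loci, which made up 4.53% of its 5868 UMIs, with NO180 first at 23 UMIs. The highest load was 11.9% of a cell's UMIs, in a cell of 1.5 mm with 84 24PHAS UMIs over 27 loci. In 20 cells loci tied for the highest count. In the other 59 NO298 led 18, NO180 15, NO187_NO188 7, NO246 4, and NO15 and NO19 3 each, and 13 loci led in at least 1 cell. At 1.25 mm the cells differed from this: in 5 of 12 the pair NO298 and NO296 made up over 50% of the UMIs, against 1 of 36 at 1.5 mm and 0 of 31 at 1.75 mm. In 2 cells of 1.25 mm, with 17 and 10 24PHAS UMIs, every one was of these 2 loci. Of the 12 cells, 11 were in recurring wells. Of the 79, 34 were in cluster 11, 41 in recurring wells and 4 elsewhere. Outside recurring wells the median was 18.5 loci. Wells 45 and 46 each gave such a cell in at least 6 pools, the kept-apart pools included, and 11 wells did so in at least 3 pools.

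**Figure D4:**
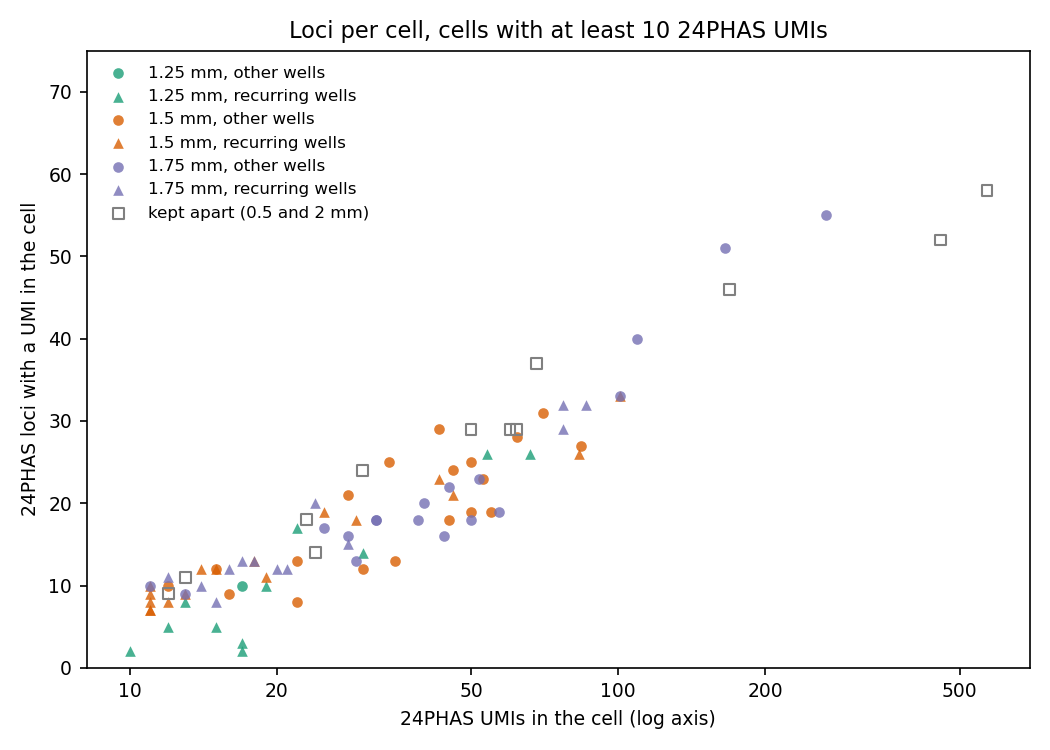
Number of 24PHAS loci with a UMI in a cell (vertical axis) against its 24PHAS UMIs (horizontal log axis), for cells with at least 10; colour gives the anther length, triangles cells of recurring wells, open squares cells of the pools kept apart. Cells of 1.5 and 1.75 mm run from 7 to 55 loci, and the 2 lowest points are cells of 1.25 mm with 2 loci.

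Pairs were formed among the 15 loci with the most UMIs. Cells with the first locus held the second more often than cells without it, in all 210 ordered pairs, also after thinning. Both loci of a pair share a cell's depth and load. Most cells of 1.25 to 1.75 mm held no 24PHAS UMI, and few cells held most of the UMIs. The direction was thus close to given beforehand, so the 210 pairs do not test a tie between particular loci. Thinning evens out total UMIs and not the 24PHAS load. The shares below, for pairs and for loci seen alone, count a single UMI, which is detection and is not read as expression. NO187_NO188 and NO180 had the highest share of joint cells among cells with either: 61 of the 75 cells with NO187_NO188 also held NO180 (81.3%, 70.7 to 89.4), against 5.51% of cells without it. Of the cells with either, 64.9% held both. The median over all pairs was 33.3%, and 19.2% after thinning. The lowest was that of NO271 and NO246, 16.4%, with NO246 in 12 of 37 cells with NO271. NO298 and NO296 shared 67 cells, 63.2% of those with NO298. Seen alone, with no other 24PHAS locus in the cell, NO296 was in 10 of its 29 cells at 1.25 mm (34.5%, 17.9 to 54.3). It was alone in 0 of 34 at 1.5 mm and 0 of 27 at 1.75 mm. Of its 66 UMIs at 1.25 mm, 63 were in cells of recurring wells. NO298 was alone in 6 of its cells (5.66%), and the other 13 loci in at most 4 cells each.

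**Figure D5:**
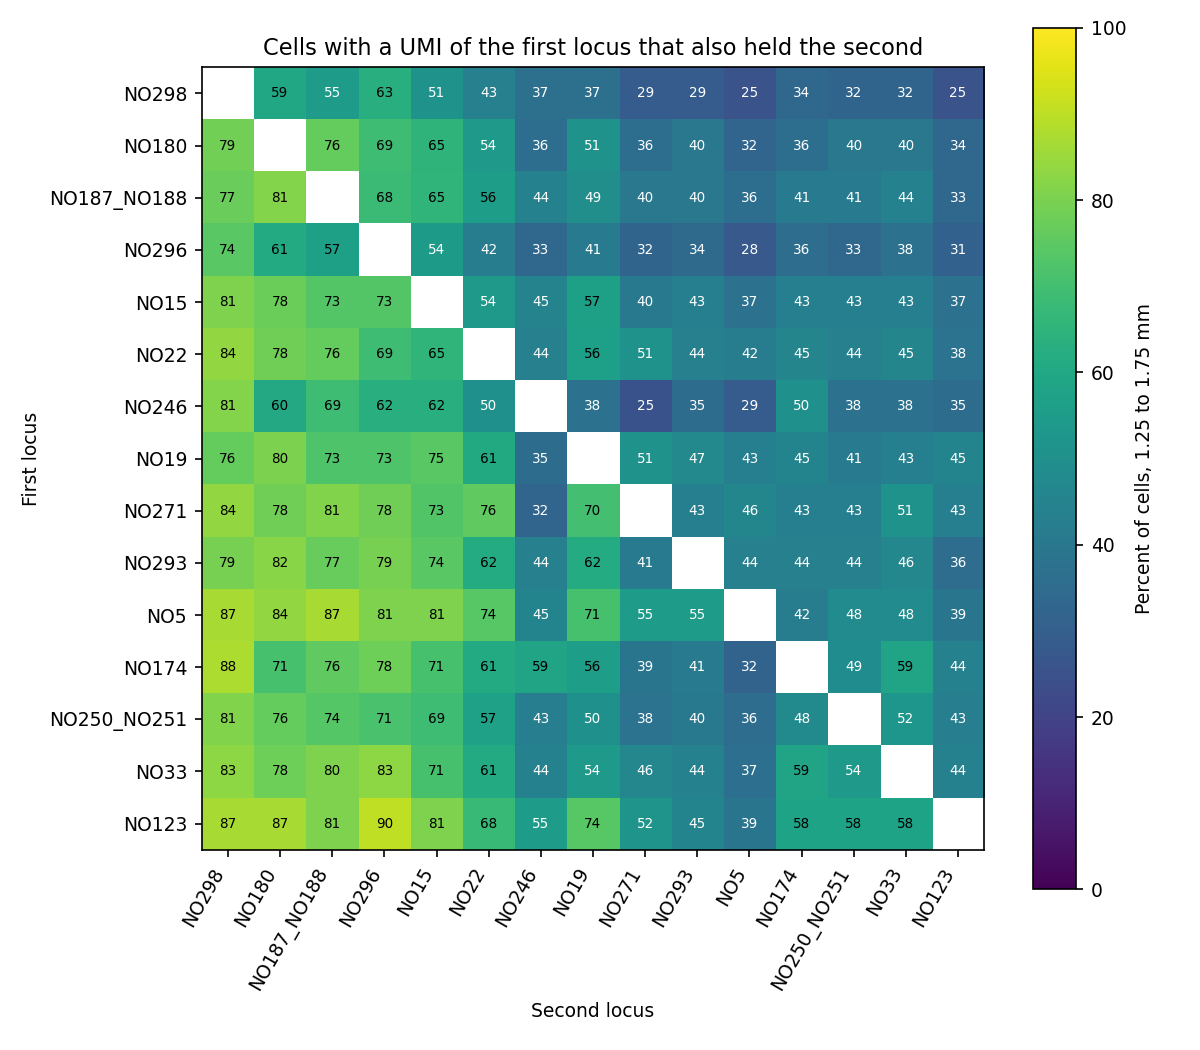
Percent of the cells with a UMI of the first locus (rows) that also held a UMI of the second locus (columns), cells of 1.25 to 1.75 mm, for the 15 loci with the most UMIs. The columns of loci with more UMIs are brighter; NO180 is found in 81.3% of cells with NO187_NO188, and NO246 in 32.4% of cells with NO271.

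Of the pathway list, 3 of 12 names had a row. The row zma-MIR2275c counts a precursor of miR2275, which guides the cut in the 24PHAS transcripts. It stood at 247.9 CPM at 1.25 mm (185.7 to 324.2; 53 UMIs). Its level was 110.7 CPM at 1.5 mm (66.7 to 172.9; 19 UMIs) and 31.0 CPM at 1.75 mm (12.5 to 63.9; 7 UMIs), with 1 UMI in all at other lengths. It was thus highest at the length where the 24PHAS sum was lowest of the 3. It was found in 32 cells of these lengths, 30 of which held a 24PHAS UMI (93.8%), against 41.5% of the others. NO296 was in 25 of the 32 (78.1%) and in 16.8% of other cells, and NO298 in 23 (71.9%) and 21.4%, while NO180 was in 12 (37.5%) and 17.5%. These shares mix lengths, since 21 of the 32 cells were of 1.25 mm. They also count a single UMI, which is not read as expression. At 1.5 mm NO298 was in 6, and NO296 and NO180 in 5 each, of 6 cells with the precursor, and at 1.75 mm NO298 and NO296 were in 5 and NO180 in 4 of 5. The precursor's cells had a median of 1483.5 UMIs and the others 1051.5. At 1.25 mm, 20 of its 21 cells and 51 of its 53 UMIs were in recurring wells, and NO296 was in 15 of the 21 and NO180 in 3. SGS3, whose product in Arabidopsis stabilises cleaved precursors for conversion to double strands, was detected at every length, from 1278 CPM at 1.0 mm to 99 UMIs (266.99 CPM) at 2.5 mm, with 734, 542 and 439 CPM at 1.25, 1.5 and 1.75 mm. In cells with at least 10 24PHAS UMIs it was at 585 CPM (473 to 716). In cells of 1.25 to 1.75 mm with none it was at 468 CPM (394.4 to 553), and the intervals overlap. The 2 groups were not matched for length. The pooled value joins unlike cells: SGS3 stood at 281.7 CPM (154.003 to 473) in those of cluster 11 and at 718 CPM (565 to 900) in those of recurring wells. The precursor zma-MIR2118f, of the family that acts on 21PHAS transcripts, had 4 UMIs in all and 0 from 1.25 to 1.75 mm.

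Outside the 3 middle lengths 49 UMIs of 22 loci were counted. NO24 had 5 of its 53 UMIs at 0.5 to 1.0 mm, NO28 4 of 30, NO31 4 of 26 and NO33 3 of 63, while NO298 and NO296 had 0. At 2.0 mm NO180 had 5 UMIs and NO187_NO188 4, and 14 loci were seen there in 10 cells (2.99%). These counts are at 5 or fewer per locus.

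Genes that mark other cells were set beside the 24PHAS load. In the 79 cells with at least 10 24PHAS UMIs, RAD51B, a recombination gene, stood at 18.7 CPM (3 UMIs) and CR4, an epidermal receptor kinase, at 18.7 CPM (3 UMIs), against 16.6 and 13.3 CPM in cells of the same lengths with none. C2, the chalcone synthase of the flavonoid pathway, stood at 672 and 741 CPM, but of the former cells those of cluster 11 held 1 UMI (20.1 CPM) and those of recurring wells 689 CPM (539 to 868). The 4 photosynthesis genes summed to 710 CPM (585 to 852) and 1774 CPM (1627 to 1931). FEN1, PCNA, HMGIY2 and MAD2, genes of replicating cells, summed to 678 CPM (557 to 818) and 1037 CPM (925 to 1158). HMGIY2 made up most of this, at 573 CPM (462 to 702) and 877 CPM (775 to 990), while PCNA stood at 18.7 and 16.6 CPM and MAD2 at 43.6 and 49.8 CPM. Both sums were thus lower in the 79 cells, by intervals that do not overlap, but these cells are of unlike classes. The photosynthesis sum was 0 UMIs in those of cluster 11 and 1082 CPM in those of recurring wells. The replicating sum was 482.9 and 775.3 CPM in these classes. HMGIY2 stood at 382.3 CPM (230.2 to 597) and 660.4 CPM (514 to 836), and the latter interval overlaps that of the cells with none. The cells with many and with none were not matched for length. The pollen profilin gene PRO3 had 0 UMIs in the 79 cells and in those with none, and the lists for tapetum and vascular cells had no row. The cells with at least 10 24PHAS UMIs had a median of 1400 UMIs and those with none 981, and the part of depth in these differences was not tested.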

How the data were processed

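The authors deposited 1 table of UMI counts per gene and cell from CEL-Seq2 libraries of single maize anther cells, with reads aligned by HISAT2 to B73 RefGen v4, per the submitters' processing notes; no source states how reads were assigned to 24PHAS rows or whether strand was used. The reference at hand pairs none of the 24PHAS names with coordinates or sequence, so positions and sequences were not used here. The members, gene lists and tests were chosen with earlier results of these data known. Cells with at least 500 UMIs were kept; doublets were not removed. Cells were summed per length, 1 sum per length, and 0 deposited columns were left unmapped.

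In R 4.3.3, edgeR 4.0.16 modelled each row (TMM scaling, its filter on low counts, quasi-likelihood F-test; DESeq2 1.42.0 as an alternative) on length and length squared, centred at 1.75 mm, with Benjamini-Hochberg adjustment over all rows tested and a threshold of 0.05. Such a fit runs over 11 sums. The loci named in the text are the 31 past the test of the squared term, the 15 with the most UMIs, every pathway gene with a row, and those singled out beside their values. Intervals are exact 95% Poisson intervals for CPM and Clopper-Pearson intervals for shares; a count of 0 allows up to 3 counts of the total. Cells were clustered (Leiden, leidenalg 0.10.2, resolution 1) on 20 principal components of 2000 variable genes, without PHAS and microRNA rows, with 15 neighbours. Thinning drew 500 UMIs from each cell. Scripts were tested on simulated data. Numbers after a set recur across lengths, and a fit with set and number as a block was tried; the sources do not say that a number marks a shared plant or day. Alternatives covered scaling, filters, cell minimum, pools kept apart, recurring wells, single sets, each length left out and the block. Peak lengths within set 8.18.21 and its number 2, the values without the cell with the most 24PHAS UMIs, and the loci per cell outside recurring wells in cells with at least 10 24PHAS UMIs were alternatives chosen after seeing the data.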

Additional observations from a re-analysis of the deposited data

Results flagged for a closer look

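Pools kept apart from every sum held 24PHAS transcripts at lengths where other cells had few. Number 7 of set 8.18.21 at 0.5 mm stood at 7081 CPM over 14 cells and 61 loci, with 444 of its 24PHAS UMIs in cells of recurring wells, against 19.9 CPM in number 8 of the same set and length. Its shares over the 75 loci resembled those of number 2 of the set at 1.75 mm more than any other pool's (Pearson r = 0.95 and Spearman rho = 0.94 across loci, which are not independent replicates). Set MiSeq at 2.0 mm stood at 2298 CPM in number 1, all in 1 cell, and at 20998 CPM in number 2, where 5 of 20 cells held 24PHAS UMIs of 62 loci. By r, number 2 was most like number 1 of set 8.18.21 at 1.75 mm (0.93, with a rho of 0.70). NO40 had 0 of its 1050 UMIs. The cause of these levels was not tested.

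Outside the pools kept apart, the cells under 500 UMIs, which entered no comparison, held 24PHAS UMIs at 1.25, 1.5 and 1.75 mm, at 1157, 6709 and 6187 CPM, and 0 UMIs at the other 8 lengths, where a count of 0 allows up to 127.8 to 1084 CPM.

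Among pools of 1 length with a value for a leading locus, 32 groups were checked for a pool far from the others, and 8 had one; chance gives about 1 in 20 for continuous values, a rate that does not hold for counts that are mostly 0. At 1.25 mm these were NO271 (45.4 CPM) and NO293 (68.0 CPM) in number 5 of set 8.18.21 and NO5 (19.8 CPM) in number 2, each resting on few UMIs, with 0 to 9.90 CPM in the other pools. For NO271 and NO5 every other pool was at 0, where any UMI in 1 pool stands apart. At 1.5 mm number 1 of set 8.18.21 stood above the other 4 pools for NO187_NO188 (1765 CPM, others at most 455), NO15 (1159 CPM, others at most 293.997), NO19 (659 CPM, others at most 175.3), NO5 (527 CPM, others at most 116.9) and NO123 (395.2 CPM, others at most 65.0). In that pool 10 of 36 cells were of cluster 11.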

How the results depend on the processing

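For the squared term of length, 31 of 35 tested loci passed edgeR's quasi-likelihood test. DESeq2 called 0, the fit without a filter on low counts 69 of 75, the fit with the pools kept apart included 2, and that without cells of recurring wells 19 of 24; leaving out 1 length at a time gave 7 to 34, with 7 without 1.5 mm and 7 without 1.75 mm. The cause with DESeq2 and with the kept-apart pools was not tested; the fit without a filter tests more loci, and those without recurring wells, 1.5 mm or 1.75 mm test fewer. With set and number as replicate block the count was 23 of 24 tested. Over 22 alternatives the 31 named loci had 608 values, as a locus that failed a filter gave none, and 0 reversed. Leaving aside DESeq2 and the fit with the kept-apart pools, which called 0 and 2 loci, 527 of 546 stayed past the threshold. The largest adjusted p of edgeR's test among the 546 was 0.104. The 546 leave out loci lost to the filter, as without 1.5 mm or 1.75 mm, where 9 and 8 were tested. For the slope DESeq2 tested 0 loci, none having passed the filter; where edgeR tested any (75 without a filter, 24 with the replicate block, 26 with set as covariate, 6 to 8 in 10 other settings) it called 0; 4 of 24 had an unadjusted p under 0.05 with the replicate block and 4 of 26 with set as covariate.

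Loci highest at 1.5 mm numbered 19, but 11 without cells of recurring wells, 10 with at least 50 UMIs per locus and 6 within number 2 of set 8.18.21. Those highest at 1.75 mm numbered 18, but 10 with at least 50 UMIs and 10 without the cell with the most 24PHAS UMIs. The share of NO298 was 11.1%, and 9.82% with the kept-apart pools, 9.25% without recurring wells, 13.7% with cells weighted equally, and 9.42% to 14.0% leaving out 1 length at a time. The share of NO298 and NO296 at 1.25 mm was 40.2%, and 17.1% without recurring wells and 50.1% with cells weighted equally. The median of loci per cell and the share of cells with at least 2 loci were 4 and 70.2%, and 2.5 and 61.3% without recurring wells, 16 and 100% in cells with at least 10 24PHAS UMIs, and 18.5 and 100% in those outside recurring wells. The share of cells holding both of 2 loci was 33.3%, and 19.2% thinned. Depth limits 37 loci with under 20 UMIs, whose peak length is not given. The 24PHAS level at 1.75 mm rests on 1 set, recurring wells hold 38.5% of the UMIs, and plant and length cannot be told apart.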
